A study of Mus musculus with 15 samples.

Results

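The genes described here are 10 members of the interleukin-1 family and the inflammasome (Il1a, Il1b, Il18, Il1rn, Il1r1, Nlrp3, Pycard, Casp1, Casp4 and Gsdmd), picked by symbol from the 48709 genes of the deposited count table. The series holds RNA-seq libraries from islets of 15 NOD/ShiLtJ female mice, 3 per age, taken at 4, at 6, at 8, at 10 and at 12 weeks of age, with no treatment and no other strain. NOD mice develop autoimmune diabetes spontaneously, and islets are the endocrine cell clusters of the pancreas. Digestion with collagenase and a density gradient came before hand-picking, so a library holds endocrine cells together with any immune, vascular or stromal cells that stayed attached. Each library is called here by the age of the mouse and its replicate number. The counts summed to 25407492 to 41616275 per library, with a median of 28004882. The label of the tissue was checked on 10 islet endocrine genes such as Ins1, Ins2 and Gcg, which summed to 288145 to 322449 CPM (counts relative to library size, with the TMM factors of edgeR) at 4 weeks and to 139662 to 179468 CPM at 12 weeks.

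IL-1α and IL-1β are cytokines that signal through the receptor IL-1R1, whose engagement is blocked by the antagonist encoded by Il1rn. IL-1β and IL-18 are made as inactive precursors and are cut by caspase-1, which is activated when a sensor such as NLRP3 assembles with the adaptor ASC (Pycard) into an inflammasome. Caspase-1 and the inflammatory caspase encoded by Casp4 also cut gasdermin D (Gsdmd), which then forms pores in the cell membrane. In islets, IL-1β made by macrophages and other myeloid cells is known to impair beta cells, which carry IL-1R1 in high amounts. Transcript levels do not show whether any of these proteins was processed or released.

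Transcripts of 9 of the 10 genes were low at 4 and 6 weeks and high at 10 and 12 weeks, while Il1r1 went the other way and by much less. At 8 weeks the means of these 9 lay between those of 6 and 10 weeks, and Il1a (0.312 ± 0.0582 CPM) was still at the 4-week level. From 4 to 12 weeks the fitted fold changes of edgeR were 19.1-fold higher for Casp1, 10.4-fold for Casp4, 9.53-fold for Nlrp3 and 8.04-fold for Il1b, and 1.34-fold lower for Il1r1. All 10 members passed the filter on low counts and were tested, which holds for 16554 of the 48709 genes. Il1a, Nlrp3 and Casp4 had under 10 counts in some of the 4-week mice, so the other ages weighed in their passing. Across all ages, the joint test of edgeR called 10 of 10 members at an adjusted p under 0.05, beside 56% of all genes tested.

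**Figure D1:**
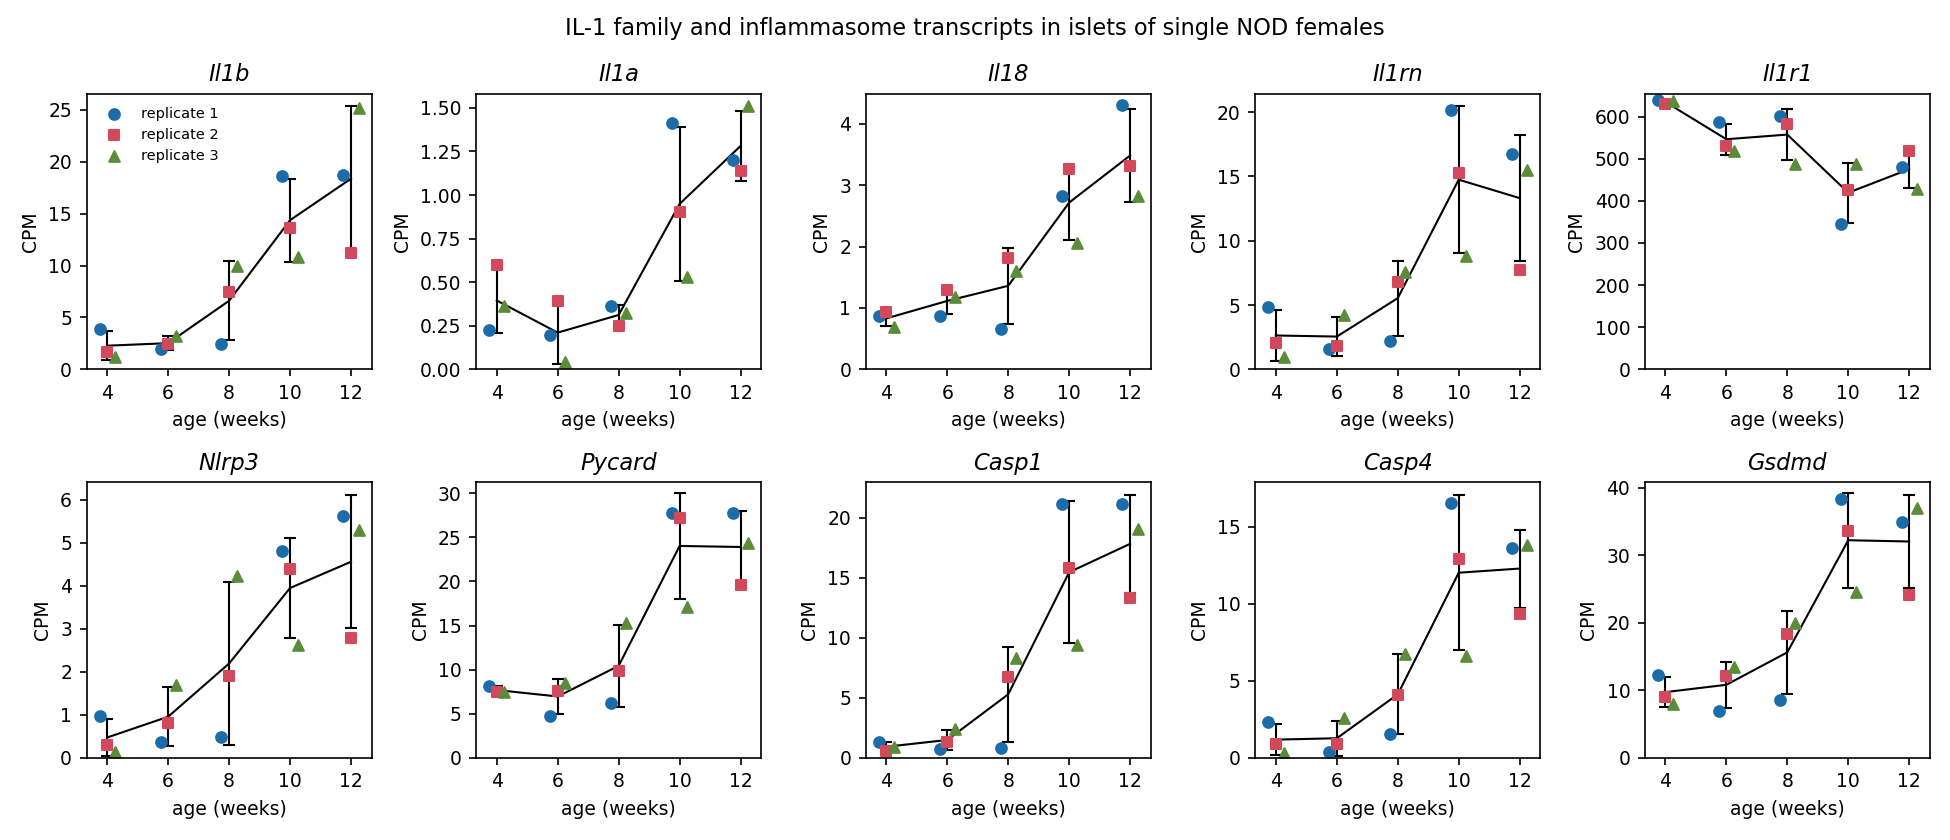
CPM (vertical axis, from 0) against age in weeks for each of the 10 genes, one point per mouse with the symbol giving the replicate number, and a line through the age means with bars of 1 SD (n = 3). For Il1b the 4-week mice sit between 1.23 and 3.89 CPM and the 12-week mice between 11.2 and 25.1, and for Il1r1 the 12-week mice sit below the 4-week mice.

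The cytokine genes Il1a and Il1b lie side by side on chromosome 2, both on the minus strand (GRCm38, Il1a at chr2:129299610-129309972 and Il1b at chr2:129364570-129371139), with 54597 bases between them. Il1b, which encodes the IL-1β precursor, had 3.89, 1.71 and 1.23 CPM in the 4-week mice and 1.94, 2.39 and 3.23 CPM in the 6-week mice. It had 2.44, 7.45 and 9.93 CPM at 8 weeks, 18.7, 13.6 and 10.8 CPM at 10 weeks and 18.8, 11.2 and 25.1 CPM at 12 weeks. Every 10- and 12-week mouse was above every younger mouse, and at 8 weeks replicate 1 was among the young values while replicates 2 and 3 were above them. Between 4 and 12 weeks the log2 fold change was 3.01 ± 0.53 (SE, edgeR quasi-likelihood test, adjusted p = 0.000737). Il1a, the gene of IL-1α, which is active without cleavage, had the fewest counts of the members, with 6, 14 and 10 counts in the 4-week mice and 37, 34 and 48 counts in the 12-week mice. That is 0.395 ± 0.189 against 1.28 ± 0.199 CPM (SD, n = 3 mice), a log2 fold change of 1.70 ± 0.53 (adjusted p = 0.0163 in edgeR). With so few counts this call was lost when 4-week replicate 1, 4-week replicate 3 or 12-week replicate 3 was left out, with adjusted p-values in edgeR of 0.0718, 0.06 and 0.0553. Genes on the opposite strand overlap both: Gm14023 with Il1a (252 counts over the 15 libraries, against 287 for Il1a) and Il1bos with Il1b (51 against 4052). Whether the counting used the strand is not given in the sources used here, so reads of Il1a and Gm14023 may not be separable.

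Il18 (chr9:50575273-50581837 in the table), whose product drives interferon gamma in lymphocytes together with IL-12, had 0.861, 0.941 and 0.688 CPM at 4 weeks and 4.31, 3.31 and 2.83 CPM at 12 weeks. The mice of these ages did not overlap, and the log2 fold change was 2.07 ± 0.34 (adjusted p = 0.000572 in edgeR). Intestinal transcripts were present in 6-week replicate 2 and 12-week replicate 1. The genes Fabp2, Tff3, Muc2, Cdx2 and Reg4, chosen after their values were seen, summed to 482 and 2546 counts in those mice and to 0 to 5 counts in each of the other 13. Il18, which gut epithelium also makes, was highest in the same mice among those of their age (1.29 CPM and 4.31 CPM). Without both mice the log2 fold change of Il18 from 4 to 12 weeks was 1.88 (adjusted p = 0.00354 in edgeR). Between these ages edgeR then called 10 members, as with both mice in, beside 7943 of 16710 genes.

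Il1rn (chr2:24336853-24351494), the gene of the receptor antagonist, followed Il1b, with 4.87, 2.05 and 0.977 CPM at 4 weeks, 2.19, 6.81 and 7.61 CPM at 8 weeks and 16.8, 7.72 and 15.5 CPM at 12 weeks. Its highest 4-week mouse (4.87 CPM) and lowest 12-week mouse (7.72 CPM) stood closer than those of Il1b. The log2 fold change from 4 to 12 weeks was 2.34 ± 0.62 (adjusted p = 0.00707 in edgeR). The balance of antagonist to cytokine, log2 Il1rn minus log2 Il1b, was -0.01 ± 0.36 (SD) in the 6 mice of 4 and 6 weeks and -0.24 ± 0.34 in the 6 mice of 10 and 12 weeks. The difference of -0.23 was within the spread between mice (p = 0.271, exact permutation test, two-sided, over 924 splits). For log2 Il18 minus log2 Il1b the same contrast gave -1.17, from -1.17 ± 0.51 to -2.34 ± 0.50 (exact permutation p = 0.00649), so Il18 rose less than Il1b, although the ranges of the early and late mice overlapped.

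Il1r1 (chr1:40225080-40317257), the signalling receptor for IL-1α and IL-1β, was the most abundant member at every age. Its counts ran from 9545 to 20197 per library, against at most 1341 for any other member. It had 640, 629 and 636 CPM at 4 weeks, 588, 531 and 519 at 6 weeks, 602, 582 and 489 at 8 weeks, 345, 426 and 487 at 10 weeks and 480, 517 and 429 at 12 weeks. The 4-week mice lay close together and above all other mice, and the lowest value was in 10-week replicate 1. From 4 to 12 weeks the log2 fold change was -0.42 ± 0.12 (adjusted p = 0.0108 in edgeR). This decrease depended on the scaling: when libraries were scaled by their totals alone it was -0.17 (adjusted p = 0.186 in edgeR), a setting that moves the median of all genes by 0.245 on the log2 scale. Without 12-week replicate 3 it was -0.35 (adjusted p = 0.051 in edgeR). Over the same ages, 9 of 10 islet endocrine genes were lower in the edgeR test, beside 27.2% of all genes. The median log2 fold change over the list was -0.87, with -1.37 for Gcg and -0.84 for Ins2. In bulk tissue, fewer cells of a type and less RNA per cell cannot be told apart.

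Nlrp3 (chr11:59541568-59566956), the sensor of membrane and ion disturbance, had 0.973, 0.299 and 0.145 CPM at 4 weeks and 5.61, 2.77 and 5.28 CPM at 12 weeks. The groups did not overlap, and the log2 fold change was 3.25 ± 0.80 (adjusted p = 0.00466 in edgeR), with the widest error of the 10 genes. Pycard (chr7:127989708-127993867), the adaptor, was already at 8.16, 7.48 and 7.42 CPM at 4 weeks and reached 27.7, 19.6 and 24.4 CPM at 12 weeks, a log2 fold change of 1.64 ± 0.31 (adjusted p = 0.00099 in edgeR). Log2 Pycard minus log2 Nlrp3 went from 3.56 ± 1.03 (SD) in the mice of 4 and 6 weeks to 2.51 ± 0.23 in those of 10 and 12 weeks. The difference was -1.05 (exact permutation p = 0.0238), and it missed the threshold without 12-week replicate 1 (-1.01, exact permutation p = 0.0563) or 12-week replicate 3 (-0.99, exact permutation p = 0.0606). The early and late mice overlapped, with a lowest early value of 2.28 and a highest late value of 2.79.

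The caspase genes Casp1 (chr9:5298517-5307265) and Casp4 (chr9:5308828-5336783) are paralogs with 1562 bases between them, and reads that fit both could have been split by the counting. Casp1, the processing enzyme of the canonical inflammasome, had 1.35, 0.556 and 0.868 CPM at 4 weeks and 0.839, 6.74 and 8.28 CPM at 8 weeks. At 10 weeks it had 21.2, 15.8 and 9.37 CPM and at 12 weeks 21.2, 13.3 and 19.0 CPM. It had the largest rise of the members, with a log2 fold change of 4.25 ± 0.71 from 4 to 12 weeks (adjusted p = 0.000574 in edgeR). Casp4, whose product senses bacterial lipopolysaccharide inside the cell, had 2.32, 0.898 and 0.326 CPM at 4 weeks and 13.6, 9.36 and 13.8 CPM at 12 weeks (log2 fold change 3.37 ± 0.75, adjusted p = 0.00265 in edgeR). Log2 Casp4 minus log2 Casp1 differed by -0.26 between the late mice (SD 0.12) and the early mice (SD 0.82, exact permutation p = 0.472). Gsdmd (chr15:75862339-75867404), the pore protein gene, had 12.2, 8.98 and 8.00 CPM at 4 weeks and 35.0, 24.2 and 37.0 CPM at 12 weeks (log2 fold change 1.72 ± 0.33, adjusted p = 0.00114 in edgeR).

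Levels of different genes were set side by side in TPM, the authors' values per transcript length, which use another scaling than the tests. At 4 weeks Il1r1 stood at 192 TPM, Gsdmd at 10.6, Pycard at 3.89, Il1b at 2.33, Il18 at 2.23, Il1rn at 1.65 and Casp1 at 1.20. Casp4 (0.623), Il1a (0.380) and Nlrp3 (0.229 TPM) were the lowest. At 4 weeks neighbours in this order overlapped between mice, except Il1r1 with Gsdmd and Gsdmd with Pycard. At 12 weeks the order was Il1r1 (187 TPM), Gsdmd (45.6), Casp1 (30.0), Il1b (24.5), Pycard (15.8), Il18 (12.2), Il1rn (10.8), Casp4 (8.36), Nlrp3 (2.84) and Il1a (1.64). Casp1 moved from rank 7 to rank 3. At 12 weeks the neighbours that did not overlap were Il1r1 with Gsdmd and Casp4 with Nlrp3. In this unit Il1r1 differed little between 4 weeks (184 to 201 TPM) and 12 weeks (181 to 199 TPM).

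**Figure D2:**
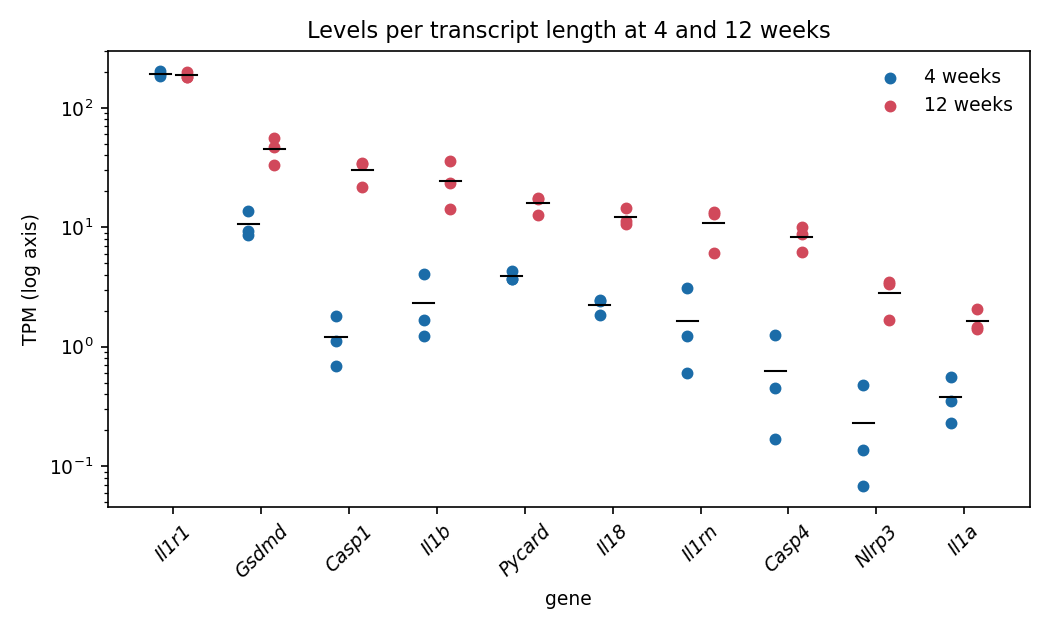
TPM on a log axis for each gene, in order of the 12-week mean, with one point per mouse at 4 weeks (blue) and 12 weeks (red) and a bar at each mean (n = 3). Il1r1 lies near 190 TPM at both ages, and Casp1 goes from a mean of 1.20 to one of 30.0 TPM.

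By age interval, the member medians were largest at 8 against 6 weeks (log2 fold change 0.855) and at 10 against 8 weeks (1.16). At 6 against 4 weeks 0 of 10 members were called, beside 0.0906% of all genes, and 0 members passed the threshold of the study, a fold change of at least 1.5 at an unadjusted p under 0.05, beside 2.9% of all genes. The edgeR fit gave 0 members and 1435 genes an unadjusted p under 0.05. The median log2 fold change was 0.116 over the members and 0.00849 over all genes. Il1a had the lowest value, -0.80 ± 0.59, and Nlrp3 the highest, 0.998 ± 0.816.

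At 8 against 6 weeks 0 of 10 members were called by edgeR, beside 0% of all genes, although 2983 genes had an unadjusted p under 0.05. Among other tools, the edgeR exact test called 301 genes and DESeq2 543, with 0 members by either. At the threshold of the study 3 members were higher, beside 8.4% of all genes: Casp1 (log2 fold change 1.83 ± 0.65), Casp4 (1.71 ± 0.72) and Il1b (1.39 ± 0.51). No member separated the mice of these ages, beside 19.3% of all genes. In 8-week replicate 1, 8 of the 10 members were at their lowest for that age. Leaving it out, Casp1 (2.34, adjusted p = 0.0281) and Il1b (1.79, adjusted p = 0.0441) were called by edgeR, 8 members and 2259 of 16870 genes passed the threshold of the study, and 797 genes in all were called. Leaving out 6-week replicate 1 or 8-week replicate 3 took the count of members past the threshold of the study to 0, with 1224 and 927 genes past it, against 1625 with every mouse.

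At 10 against 8 weeks edgeR called 2 members higher, Pycard (1.20 ± 0.30, adjusted p = 0.0286) and Gsdmd (1.04 ± 0.32, adjusted p = 0.0449), beside 8.4% of all genes. It called 1 member lower, Il1r1 (-0.41 ± 0.12, adjusted p = 0.039), beside 8.37% of all genes. At the threshold of the study 8 members were higher, every one but Nlrp3 and Il1r1, beside 11.1% of all genes. In 7 members every 10-week mouse was above every 8-week mouse, beside 17.2% of genes, and in 1 every 10-week mouse was below, beside 15.5%. The calls at this step were not stable over all genes, the members among them: edgeR called 0 genes, and so 0 members, when 8-week replicate 1, 8-week replicate 2, 10-week replicate 1 or 10-week replicate 2 was left out. Without 10-week replicate 3 it called 5612 of 16868 genes and 5 members. The Il1r1 call was also lost when libraries were scaled by totals (-0.30, adjusted p = 0.069 in edgeR). With replicate 1 of 10 weeks left out, 3 members and 1270 genes passed the threshold of the study, without replicate 2 of 10 weeks 4 members and 1551 genes, and without replicate 1 of 8 weeks 5 members and 1275 genes, against 8 and 2306 with every mouse.

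At 12 against 10 weeks 0 members were called, beside 0% of all genes, and 0 passed the threshold of the study, beside 2.17%. The edgeR fit gave 0 members and 1245 genes an unadjusted p under 0.05, and the edgeR exact test and DESeq2 called 8 and 12 genes. Log2 fold changes of the members at this step ran from -0.15 (Il1rn) to 0.44 (Il1a). Over the whole period, 12 against 4 weeks, 9 members were called higher, beside 26.3% of all genes, and 1 lower, beside 27.2%. At the threshold of the study 9 were higher, beside 20.9% of all genes. In the same 9 genes every 12-week mouse was above every 4-week mouse, beside 30.3% of genes, and in Il1r1 every 12-week mouse was below, beside 33.9%. The median log2 fold change was 2.20 over the members and -0.05 over all genes. When scaled by library totals alone, 78.3% of all called genes were higher, against 49.2% with TMM factors, and the 9 members stayed called.

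**Figure D3:**
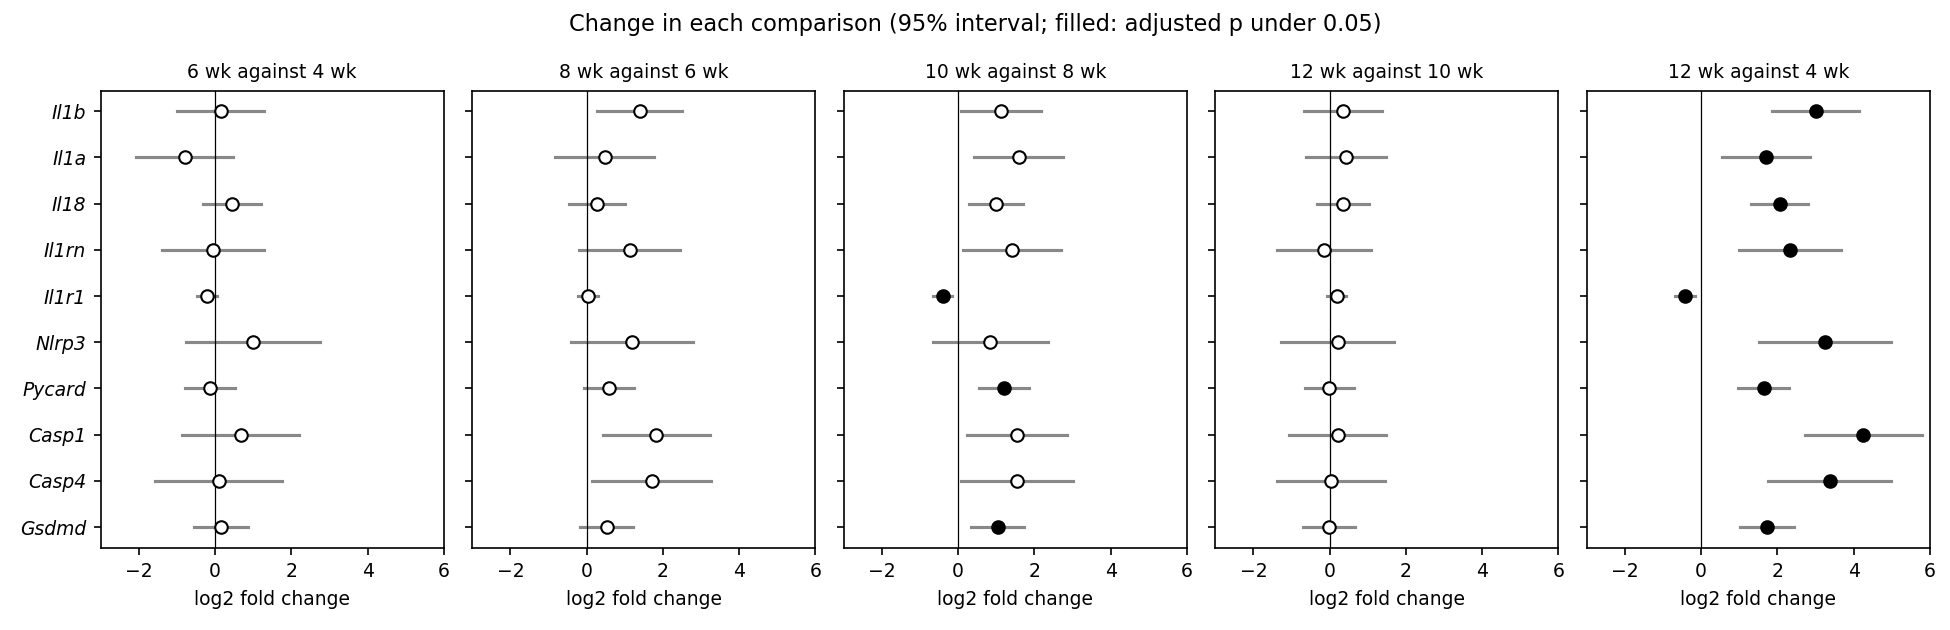
Log2 fold change (horizontal axis) of each gene in the 5 comparisons between ages, with its 95% interval from the edgeR fit over 15 mice, filled where the adjusted p is under 0.05. All 10 points are filled at 12 against 4 weeks, 3 at 10 against 8 weeks (Il1r1, Pycard and Gsdmd) and none at the other steps.

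Mice of the same age differed, and in them most members other than Il1a and Il1r1 stood high or low together. Among the 4-week mice replicate 1 had the highest value of 8 members, and among the 10-week mice replicate 1 was highest for 8 and replicate 3 lowest for 9. Replicate 2 was lowest for 8 members at 12 weeks. Over the 15 mice the median Pearson r of log2 CPM was 0.94 for the 36 pairs of members without Il1r1 and -0.81 for the 9 pairs with it. After each age mean was subtracted the medians were 0.80 and -0.59. Il1a stood apart there, with r of -0.29 (Casp4) to 0.02 (Il18) with the other 8 members that rose. These are descriptions over mice of 5 ages, and each value of a mouse comes from the same library.

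Leukocyte markers moved with the same mice. The 10 macrophage markers, all of them tested, summed to 268, 126 and 88.4 CPM at 4 weeks, to 110, 161 and 285 at 6 weeks, to 177, 579 and 787 at 8 weeks, to 1555, 1234 and 723 at 10 weeks and to 1465, 1259 and 1469 at 12 weeks. The summed level was lowest in 8-week replicate 1 and in 10-week replicate 3 among the mice of their age, as were most members. All 10 macrophage markers were higher at 12 than at 4 weeks in the edgeR test, beside 26.3% of all genes. Their median log2 fold change was 2.53, and none was at 0 counts. Lyz2 was the highest in CPM at 12 weeks (812) and C1qa at 4 weeks (52.4). Of the 8 neutrophil markers only Csf3r and Cxcr2 were tested, and both were called higher at 12 than at 4 weeks by edgeR (log2 fold changes 3.32, adjusted p = 0.00536, and 5.65, adjusted p = 0.00192). Cxcr2 had 1 count in each 4-week mouse and 15 to 152 in the 12-week mice, so it passed the filter through the older mice and had to differ, which leaves Csf3r. The other markers S100a8, S100a9, Ly6g, Mpo, Elane and Retnlg had at most 9 counts in any 12-week mouse. Other cell type lists also rose from 4 to 12 weeks in the edgeR test, beside 26.3% of all genes called higher. The median log2 fold change was 3.25 for dendritic cells (7 of 7 markers higher), 4.75 for T cells (8 of 8), 8.39 for B cells (6 of 6), 6.83 for lymph node stroma (6 of 6) and 2.01 for fibroblasts and pericytes (7 of 7). The part of macrophages and these other cells in the rise of the members was not tested. With the mean of 32 leukocyte markers of each mouse as a covariate, edgeR called 0 members and 3 of 16554 genes at 12 against 4 weeks. That mean ran from -0.372 to 2.17 in the 4-week mice and from 5.33 to 5.71 in the 12-week mice. It follows age, so this fit cannot separate age from marker level, and a loss of calls in it shows no cause.

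The members were also set against the mean log2 level of the macrophage markers. From the mice of 4 and 6 weeks to those of 10 and 12 weeks the marker mean went up by 2.52. Il1b went up by 2.77, and log2 Il1b minus the marker mean went from -1.92 ± 0.19 (SD) to -1.66 ± 0.27. This change of 0.25 missed the threshold (exact permutation p = 0.0909), and the ranges of the early and late mice overlapped. For Nlrp3 and Il1rn the differences changed by 0.24 and 0.02, with early SDs of 0.566 and 0.226. For Casp1 and Casp4 the differences changed by 1.30 and 1.04, with SDs in the early mice of 0.498 and 0.551. For Gsdmd, Pycard and Il18 they changed by -0.86, -0.81 and -0.91, with early SDs of 0.401, 0.568 and 0.568. The change of -0.70 for Il1a was within the spread of its early mice (SD 1.42), and for Il1r1 it was -2.92 (early SD 0.723). These values were not tested, except that of Il1b.

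**Figure D4:**
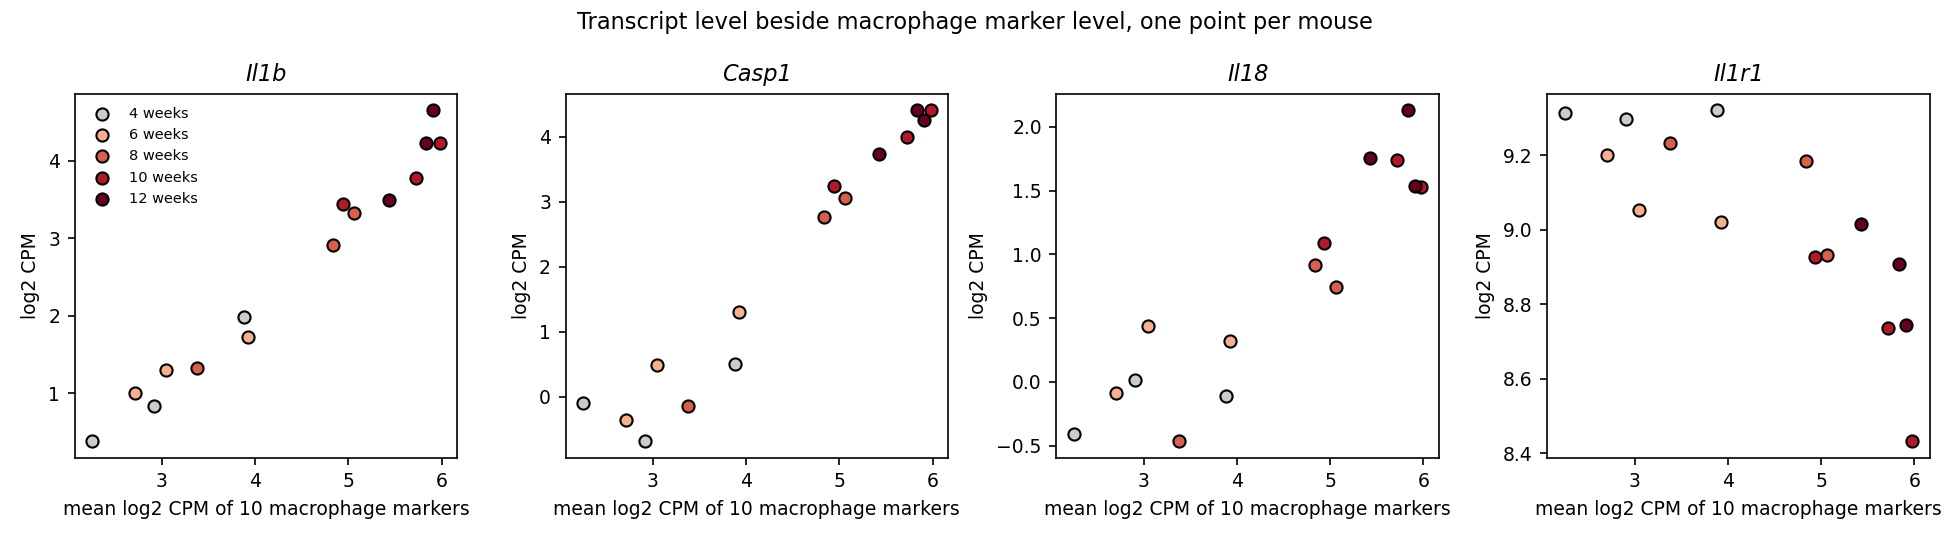
Log2 CPM of Il1b, Casp1, Il18 and Il1r1 (vertical axes) against the mean log2 CPM of 10 macrophage markers (horizontal axis), one point per mouse, darker at older ages. Il1b, Casp1 and Il18 are higher in mice with higher marker levels and Il1r1 is lower, and 8-week replicate 1 lies among the younger mice.

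The genes whose levels were most like those of a member over the 15 mice were taken from 13684 genes with a mean of at least 1 CPM. For Gsdmd they were C1qa (r = 0.995), Unc93b1 and Ifi30. For Il1b they were Srgn, Tgm2 and Cmtm7 (r = 0.99 each), for Il1rn Ms4a6d and H2-T23, and for Nlrp3 H2-Ab1, Siglech and Cd300c2. For Casp1 they were Slc7a7, the sensor gene Nlrp1a and Prcp, for Casp4 Sept1, Sp110 and Dock2, and for Pycard Gngt2, Rap2b and Dok1. Il18 was closest to Rnf43, Fjx1 and Chst4 (r = 0.97 each). Il1a was closest to Eif4e2, Cpsf4 and Rnf144a, and Il1r1 to Rai2 (r = 0.96), AW209491 and Emcn (r = 0.95). Emcn is an endothelial marker. Of the 6 endothelial markers 3 were higher at 12 against 4 weeks in the edgeR test, beside 26.3% of all genes. Emcn alone was lower, beside 27.2%, and the median log2 fold change was 0.23. The call of Emcn was lost with DESeq2 size factors and with library totals. The part of endothelial cells in the level of Il1r1 was not tested.

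Promoter sequence is shown for 5 members because their levels moved differently. Il1b, Il1rn and the neighbours Casp1 and Casp4 rose, and Il1r1 was lower in CPM, a decrease that depended on the scaling. Each is the 250 bases before a RefSeq start (GRCm38.p6), 5′ to 3′ on the strand of the gene, with matches to the searched motifs in capitals. RefSeq holds 3 starts for Il1rn and 2 each for Casp4 and Il1r1, and the start nearest to the 5′ end of the counted gene was taken. Which start is used in these islets was not tested. RefSeq gave promoters for 9 of the 10 members, Gsdmd being the other. The regions are chr2:129371140-129371389 (minus strand) for Il1b, chr2:24336610-24336859 (plus) for Il1rn, chr9:5298267-5298516 (plus) for Casp1, chr9:5308599-5308848 (plus) for Casp4 and chr1:40224830-40225079 (plus) for Il1r1.
Il1b: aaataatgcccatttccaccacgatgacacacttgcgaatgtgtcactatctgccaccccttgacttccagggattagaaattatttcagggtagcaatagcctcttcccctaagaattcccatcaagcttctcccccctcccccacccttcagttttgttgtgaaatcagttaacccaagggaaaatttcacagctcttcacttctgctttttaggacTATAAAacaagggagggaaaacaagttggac
Il1rn: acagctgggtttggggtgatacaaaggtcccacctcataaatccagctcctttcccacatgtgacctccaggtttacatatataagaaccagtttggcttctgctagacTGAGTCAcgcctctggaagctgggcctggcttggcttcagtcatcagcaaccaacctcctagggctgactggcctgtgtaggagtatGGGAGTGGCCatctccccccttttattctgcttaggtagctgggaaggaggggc
Casp1: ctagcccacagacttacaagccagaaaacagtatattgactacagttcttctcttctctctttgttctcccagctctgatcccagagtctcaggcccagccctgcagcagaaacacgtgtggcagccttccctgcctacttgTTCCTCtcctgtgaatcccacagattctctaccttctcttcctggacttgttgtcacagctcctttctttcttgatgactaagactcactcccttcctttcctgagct
Casp4: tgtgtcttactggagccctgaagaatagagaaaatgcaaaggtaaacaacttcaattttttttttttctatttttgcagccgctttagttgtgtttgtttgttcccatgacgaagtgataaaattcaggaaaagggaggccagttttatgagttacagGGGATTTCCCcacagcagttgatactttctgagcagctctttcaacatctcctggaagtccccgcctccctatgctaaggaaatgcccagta
Il1r1: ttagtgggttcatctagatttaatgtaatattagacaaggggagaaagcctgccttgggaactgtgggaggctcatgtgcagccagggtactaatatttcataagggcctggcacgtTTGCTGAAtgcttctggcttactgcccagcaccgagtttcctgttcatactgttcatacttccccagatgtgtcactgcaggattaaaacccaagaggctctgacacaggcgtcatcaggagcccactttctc

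The motifs were searched as letters on both strands: GGGA and CC with any 4 bases between them for NF-κB, TGANTCA for AP-1, GAGGAA for the ETS core bound by PU.1, TTGCNNAA for C/EBP and TATAAA for the TATA box. Il1b holds TATAAA at -31 to -26 from the start, and Casp4 holds GGGATTTCCC at -92 to -83, which reads as a match on both strands. Il1rn holds GGGAGTGGCC at -54 to -45 and TGAGTCA at -141 to -135, Casp1 holds GAGGAA on the other strand at -108 to -103, and Il1r1 holds TTGCTGAA at -133 to -126. The κB letters occurred in 3 of the 9 member promoters (Il1rn, Nlrp3 and Casp4) and in 17.6% of 32851 promoters of this length. The shares were 2 of 9 and 6.75% for AP-1, 3 of 9 and 23.3% for the ETS core, 2 of 9 and 9.56% for C/EBP, and 3 of 9 and 12.4% for TATAAA. Besides Il1b, TATAAA lay at -32 to -27 in Il1a, and at -175 to -170 on the other strand in Il18. The RefSeq start of Il18 lies 20573 bases from the 5′ end of the counted gene. A match is a description of the letters, not of a site in use.

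Around the members, other genes of the pathway were read at 12 against 4 weeks from lists that are grouped by role. Of the other IL-1 family ligands only Il33, an alarmin, was tested, with 0.959 ± 0.921 CPM at 4 weeks and 27.2 ± 1.16 CPM at 12 weeks. Its log2 fold change was 4.81 ± 0.80 (edgeR, adjusted p = 0.00056). The IL-36 genes and Il1f10 had at most 1 count in any 12-week mouse. Of 8 receptors and binding proteins 7 were higher, beside 26.3% of all genes: Il18r1 (3.97), Il1rl1 (3.84), the receptor of IL-33, Il18bp (1.95), which neutralizes IL-18, Il1rl2 (1.67), the decoy receptor Il1r2 (1.16), Sigirr (0.62) and the accessory chain Il1rap (0.31). Il1rl1 had under 10 counts in every 4-week mouse, and without it 6 of 7 were higher. Il18rap missed the threshold with 2.90 ± 1.17 (adjusted p = 0.0518 in edgeR).

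Of 9 other inflammasome sensors tested, 9 were called higher, beside 26.3% of all genes, among them Aim2, which binds DNA (4.21), Mefv (3.92), Nlrp1a (3.55), Nlrc4 (2.41) and Naip2 (0.32). Naip1 had 0 counts in every 4-week mouse and 25 to 79 counts in the 12-week mice, so it passed the filter through the older mice and had to differ. Without it 8 of 8 sensors were higher. The Naip genes are close copies of each other, so their counts are uncertain. Nlrp6 was not tested and had 234 counts in 12-week replicate 1 and 49 in 6-week replicate 2, the mice with intestinal transcripts, and at most 6 in any other mouse. Of 14 regulators and effectors 11 were higher, beside 26.3% of all genes, led by Serpinb1a (4.07), an inhibitor of inflammatory proteases, Gbp2 (2.80), Gbp5 (2.79) and P2rx7 (2.12), the ATP channel upstream of NLRP3. Ninj1 was lower (-0.28), a call lost with DESeq2 size factors and with library totals, and Dfna5 (-0.10), another gasdermin gene, and Card19 (0.11) were not called.

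Of 16 genes of IL-1 receptor signalling 8 were higher, beside 26.3% of all genes, and 3 lower, beside 27.2%, with a median log2 fold change of 0.12. The higher ones included the adaptor Myd88 (0.94), the kinases Irak2 (1.29) and Irak4 (1.22), and Irak3 (1.41), a brake on the pathway. Tollip (-0.66), Irak1 (-0.40) and Tab1 (-0.36) were lower. Tab1 lost its call with DESeq2 size factors and with library totals, and Irak1 with library totals. Of 16 genes known to respond to IL-1, 10 were higher, beside 26.3% of all genes, among them Icam1 (3.26), Ptgs2 (2.93), Bcl3 (2.84), Tnfaip3 (2.66), Ccl2 (2.29), Nfkbia (1.82) and Nos2 (1.49), the inducible nitric oxide synthase. Nfkbiz, Cxcl2, Il6, Sod2, Lcn2 and Saa3 were not called. Many of the 10 respond to other cytokines as well. At 10 against 8 weeks 0 of 9 other sensors were called, and Il33 was not called. Called higher at that step were 1 of 8 receptor genes (Sigirr) and 4 of 14 regulators (Panx1, Casp8, Serpinb1a and Cd14). So were 5 of 16 signalling genes and 2 of 16 response genes (Nfkbia and Fas), beside 8.4% of all genes. The receptor and response counts are near that share, and these calls too were lost, with those of every other gene, when any of the 4 mice named above was left out.

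**Figure D5:**
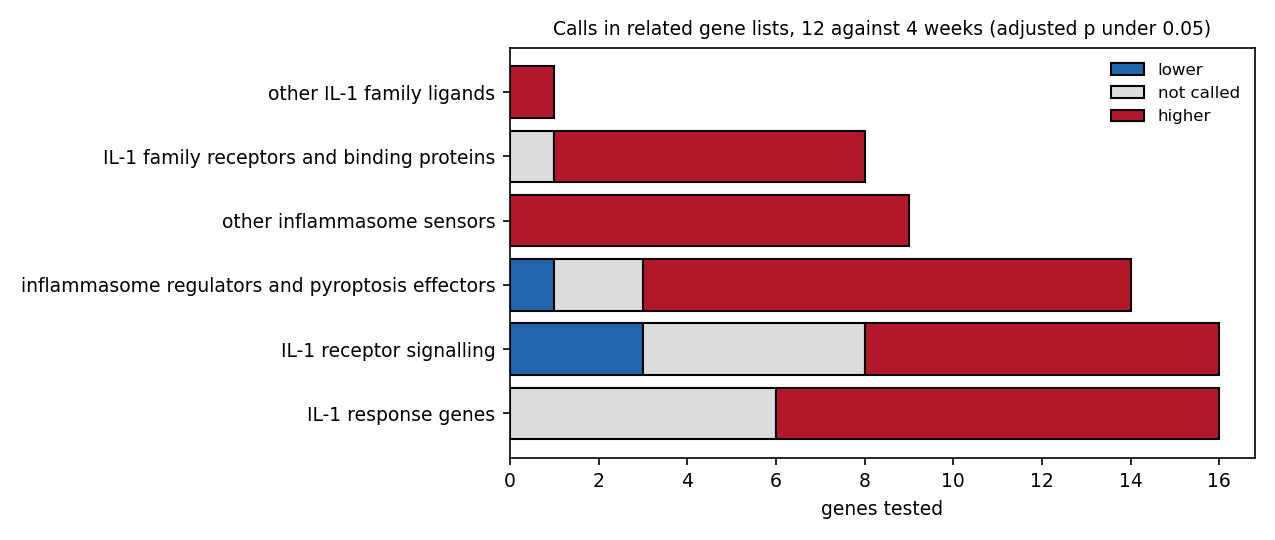
Number of genes (horizontal axis) in 6 related lists that were called lower, not called or called higher at 12 against 4 weeks (edgeR, adjusted p under 0.05). The 9 sensors are higher, Naip1 included, while of 16 signalling genes 8 are higher, 3 lower and 5 not called.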

How the data were processed

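According to the paper, islet RNA of 15 NOD females was sequenced from polyadenylated libraries as read pairs, and reads were trimmed, aligned and counted per gene at the defaults of CLC Genomics Workbench. The submitters' processing notes name the build mm10. The deposited counts are whole reads per gene, not normalized. The authors also deposited TPM, used here only to order genes. A further 30 columns (RPKM and CPM) were not used.

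Genes were kept by filterByExpr and fitted over all 15 mice with edgeR 4.0.16 in R 4.3.3 (TMM factors, glmQLFit, one mean per age). Called means a Benjamini-Hochberg adjusted p under 0.05 over all genes tested. Log2 CPM used a prior count of 2. Differences of 2 transcripts were tested by exact permutation, two-sided, with 6 mice against 6 (smallest possible p 0.00216). The permutation p-values were not adjusted for the number of such tests. The 3 mice of an age are separate animals according to the paper. No 2 libraries held the same counts. Correlation of genes with a member used the 3 highest Pearson r outside immunoglobulin, T-cell receptor and unnamed genes. The named genes are the members, the genes of the lists and these, of which 1 is not reported here.

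The members and lists were chosen with earlier results of these data known. The intestinal genes and leaving out both mice that hold them were chosen after seeing the data. Alternatives were DESeq2 1.42.0 and its size factors, library totals, no filter, the edgeR exact test, the 2 ages alone, a leukocyte marker covariate, the replicate number as a block, a prior count of 0.5 and each mouse left out. The steps were tested on simulated data. Promoters came from RefSeq (GRCm38.p6), and Python 3.11.15 and matplotlib 3.10.9 drew the figures.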

Additional observations from a re-analysis of the deposited data

How the results depend on the processing

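Directions and calls at 12 against 4 weeks held in 69 of 70 member values over the 7 planned settings other than the covariate, the exception being Il1r1 with library totals. With each mouse left out in turn, 8 to 10 members were called there, beside 7226 to 8392 genes in all. At 10 against 8 weeks edgeR called 1 member without a filter, 0 with the replicate block, 0 with the leukocyte covariate, 0 in a fit of the 2 ages alone, 1 without the 2 mice with intestinal transcripts, 5 by the exact test and 0 to 5 with a mouse left out, and DESeq2 called 7. These counts went with those over all genes, which were 1872 without a filter, 0 with the block, the covariate or the 2 ages alone, 1144 without the 2 mice, 2939 by the exact test and 4096 in DESeq2, against 2776. Past the threshold of the study there were 5 members with the block, 2 with the covariate and 3 to 9 with a mouse left out. Over all genes these counts were 2091, 621 and 1270 to 3518. At 8 against 6 weeks the members past it were 1 with the covariate, 1 in a fit of the 2 ages, 0 without the 2 mice and 0 to 8 with a mouse left out. Over all genes these counts were 582, 1140, 873 and 927 to 2259. Called with a mouse left out were 0 to 2 members, beside 0 to 797 genes. At 6 against 4 weeks 1 member was past the threshold without the 2 mice and 0 to 1 with a mouse left out, beside 491 and 446 to 566 genes. With the covariate, 0 members were called at 12 against 4 weeks and 1 passed the threshold, beside 3 and 1244 genes. Over all ages 0 members were called with it. The covariate rises with age, so fits that hold it cannot separate age from marker level. The causes were not tested.

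The labels give no pairing of mice by replicate number. Deviations of same-numbered mice from their age means correlated by -0.339 (mean over the 3 numbers, 6 against 4 weeks), 0.293 (8 against 6), -0.248, -0.152 and -0.01 at the later comparisons. At 8 against 6 weeks the values for replicates 1, 2 and 3 were 0.509, -0.118 and 0.489. With 3 mice per age such values cannot settle whether mice were paired. The block took the calls among all genes at 10 against 8 weeks from 2776 to 0 and changed no other count of members called by over 1.5 times.

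At 12 against 4 weeks alone, Il18 minus Il1b was -1.09 (exact permutation p = 0.2) and Pycard minus Nlrp3 -1.73 (exact permutation p = 0.1, the smallest that 3 against 3 mice allow). With a mouse left out, Pycard minus Nlrp3 ran from -1.31 to -0.74, and without the 2 mice it was -1.10 (exact permutation p = 0.0714). Il1b minus the macrophage marker mean ran from 0.171 to 0.31, past the threshold without 10-week replicate 2 (exact permutation p = 0.0498).

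Single log2 fold changes turned sign where they were near 0 or under the covariate, and no turned value was called, although Il1rn, Nlrp3, Casp4 and Gsdmd at 12 against 4 weeks were called without the covariate. At 12 against 10 weeks Pycard and Gsdmd were 0.00468 and 0.00472 with DESeq2 size factors, 0.0172 and 0.0198 with library totals and 0.00473 and 0.00458 in DESeq2. Casp4 there was -0.0166 with the block and -0.0501 without the 2 mice. Il1rn at 6 against 4 weeks was 0.14 without the 2 mice. Under the covariate, at 6 against 4 weeks Il1b was -0.0648, Casp4 -0.379 and Gsdmd -0.0643. At 8 against 6 weeks Il1b was -0.132, Il1rn -0.584, Il18 -0.408, Nlrp3 -1.18, Casp1 -0.181, Casp4 -0.294, Pycard -0.132 and Gsdmd -0.356. At 10 against 8 weeks Nlrp3 was -0.622 and Casp4 -0.0298, and at 12 against 10 weeks -0.0436 and -0.145. At 12 against 4 weeks Il1rn was -1.12, Nlrp3 -1.24, Casp4 -0.847 and Gsdmd -0.118. With a mouse left out, at 6 against 4 weeks Il1rn ran from -0.63 to 0.752, Il1b from -0.16 to 0.781, Casp4 from -0.865 to 1.06, Pycard from -0.308 to 0.0658 and Gsdmd from -0.0263 to 0.389. Il1r1 at 8 against 6 weeks ran from -0.0288 to 0.116. At 12 against 10 weeks Il1rn ran from -0.412 to 0.145, Pycard from -0.201 to 0.117, Gsdmd from -0.169 to 0.158, Nlrp3 from -0.0152 to 0.463, Casp1 from -0.0534 to 0.498 and Casp4 from -0.261 to 0.331.

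Counts were low for Il1a (1 to 48 per library), Il18 (18 to 133) and Nlrp3 (4 to 175), which limits their precision, and there are 3 mice per age.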
